A study of Homo sapiens with 12 samples.

Results

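The mRNAs of 10 genes of the Hippo pathway were followed in adipocytes in which linc-ADAIN, a long intergenic non-coding RNA of human fat, was targeted by shRNA. The genes were taken by name, and they and the wider lists below were chosen with earlier results of these data known. Their shares that passed, set beside those of all genes, are therefore descriptions. They were the angiomotins AMOT, AMOTL1 and AMOTL2, the transcriptional coactivators YAP1 and WWTR1 (the gene of TAZ), the DNA-binding factors TEAD1 and TEAD4, the kinases LATS1 and LATS2, and ANKRD1, a target gene of the pathway. All 10 were among the 28901 gene names of the table, and all 10 passed the filter of at least 10 counts in total in every comparison.

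The Hippo pathway is a kinase cascade that reads cell contact, tension and the actin cytoskeleton. When it is active, LATS kinases phosphorylate YAP and TAZ, which are then held in the cytoplasm or degraded. When it is inactive, YAP and TAZ enter the nucleus and bind TEAD factors, which carry them to target genes such as ANKRD1, CCN1 and CCN2. Angiomotins are scaffold proteins of cell junctions and actin filaments that bind YAP and TAZ and recruit LATS kinases. AMOTL2 and LATS2 are also known targets of YAP and TAZ, a negative feedback. In mesenchymal precursors TAZ is known to bind PPARγ, the master regulator of adipogenesis, and to hold back its activity. Most of this control acts on proteins, which RNA-seq does not measure.

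The cells were ASC52telo, a line of human adipose-derived mesenchymal stem cells immortalized with hTERT. Every group carried a lentiviral pLVX-shRNA2 vector and was sorted for its ZsGreen marker before differentiation, so that the control also went through infection and sorting. The scramble control expressed a scramble shRNA and the linc-ADAIN KD expressed an shRNA against linc-ADAIN, with no further hairpin named in the labels. All groups had 7 days of differentiation medium and 7 days of maintenance medium (day 14). Cells of each shRNA were either left without LPS (bacterial lipopolysaccharide) or given 100 ng/mL of it for 4 h, which makes 4 groups, and each group had 3 libraries. The study describes the RNA-seq of KD at day 14 as 1 experiment in triplicate, so n = 3 counts libraries of 1 experiment and p-values measure the spread between them, which may be technical. The targeted RNA, linc-ADAIN, was not analysed here, so the KD label was not checked against its level.

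Libraries held 28.4 to 53.8 M counts on named genes (M, units of 1e6). Adipocyte markers were present in every group, but their summed level was lower with KD: 3494 to 4792 CPM (counts per 1e6 counts of a library) in scramble control against 766 to 2054 CPM in KD, and 4001 to 4736 against 625 to 1334 CPM with LPS. Markers are counted here at an adjusted p under 0.05 by edgeR's quasi-likelihood test. By that rule 12.1% of all genes tested were higher and 15.1% lower in KD without LPS, and 12.7% and 14.2% with LPS. Of the 10 adipocyte markers, 8 were lower in KD without LPS and 9 with LPS. By qPCR and western blot, the study reports the opposite direction in KD adipocytes, with higher mRNA and protein of adipogenic markers such as PPARγ and adiponectin. The cause of this difference was not tested. Summed smooth muscle markers were 738 to 913 CPM in scramble control, 325 to 377 CPM with LPS, 233 to 307 CPM in KD and 122 to 180 CPM in KD with LPS. Of the 10 stromal markers, 4 were higher and 3 lower in KD both without and with LPS, and DLK1 was at 0 in every library. Of the macrophage markers, CD163 rose with KD from a mean of 4.33 to 68.6 CPM without LPS and CD68 fell from 53.6 to 31.1 CPM (adjusted p = 9.77e-08 and 5.26e-05), while PTPRC had at most 12 counts in any library, so the higher sum of the list in KD (88.2 to 117 against 57.2 to 60.5 CPM) lay in CD163. Endothelial markers without LPS summed to 23.6 to 27.1 CPM in scramble control and 11.8 to 12.3 CPM in KD. With LPS the sums were 15.3 to 17.0 and 8.45 to 13.2 CPM, without overlap, but the genes were mixed: 1 marker was higher in KD and 3 were lower. Of the 5 proliferation markers, 3 were higher in KD without LPS, and with LPS their sum was 41.4 to 87.8 CPM for scramble control and 78.4 to 86.3 CPM in KD. The part of these shifts in the results on Hippo genes was not tested. In such bulk samples, fewer cells of a type and less RNA per cell cannot be told apart.

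Without LPS, KD moved 7 of the 10 genes past an adjusted p of 0.05 (edgeR's quasi-likelihood test, Benjamini-Hochberg over all genes), 3 up and 4 down, where 27.2% of all genes tested passed (12.1% up and 15.1% down). The 2 groups did not overlap for 8 of the 10, against 42.5% of all genes. The 7 calls became 4 to 6 when 1 library was left out, with 4 without scramble replicate 2 or KD replicate 1. ANKRD1 and AMOT passed 2-fold, as did 7.77% of all genes. The coactivators YAP1 and WWTR1 fell, and the feedback target AMOTL2 rose. With LPS, KD moved 5 of the 10, with AMOTL2, LATS2 and ANKRD1 up and YAP1 and WWTR1 down, against a background of 26.9% (12.7% up and 14.2% down). The groups did not overlap for 7 of the 10, against 40.6% of all genes. AMOTL2 and ANKRD1 then exceeded 2-fold, as did 8.48% of all genes.

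LPS alone lowered 5 of the 10 genes in scramble control (AMOTL1, AMOTL2, WWTR1, TEAD4 and LATS2), and the other 5 did not pass, where 14.3% of all genes passed (5.9% up and 8.38% down). The groups did not overlap for 9 of the 10, against 32.1% of all genes. In KD, LPS lowered 3 of the 10 (AMOTL1, WWTR1 and TEAD4), and the other 7 did not pass, where 11.3% passed (5.32% up and 6.03% down), and the groups did not overlap for 6 of the 10, against 27.3%. The largest of these falls was that of TEAD4, by 42.7% in scramble control, which is short of 2-fold, a size that 2.68% of all genes passed in scramble control and 2.25% in KD. The LPS comparisons use the same 12 libraries as the KD comparisons, so the sets of values are not independent of each other.

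Over all genes, 1965 were higher and 2446 lower in KD without LPS (44.5% of calls higher), and scaling by library size alone in place of TMM turned this to 61.4% higher, with a shift of the median gene from 0.02 to 0.13 on the log2 scale. With LPS the share of higher calls was 47.2% and became 59.2%, with the median gene at 0.03 and 0.11. For LPS in KD it was 46.9% and became 35.2%. Values below are scaled by TMM, a normalization that centres the bulk of the genes.

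**Figure D1:**
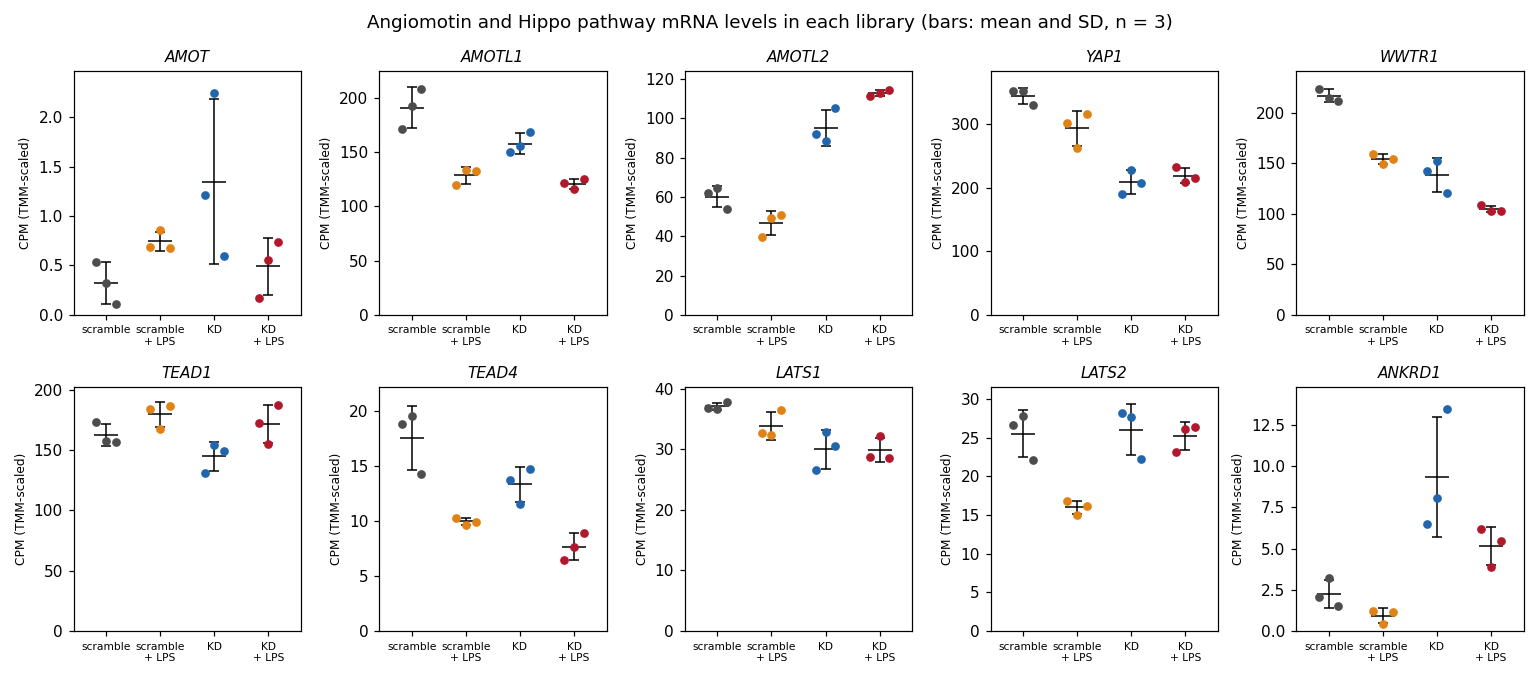
CPM scaled by TMM (y axis, linear from 0) of each of the 10 genes in each of the 12 libraries (points), by group (x axis), with the mean and SD of 3 libraries. AMOTL2 and ANKRD1 sit higher in both KD groups than in the scramble groups without and with LPS, and YAP1 and WWTR1 sit lower in KD than in the scramble control of the same LPS state.

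AMOTL2 (chr3:134355347-134375479, minus strand, GRCh38) is an angiomotin of cell junctions and itself a YAP target. It stood at 62.1, 64.4 and 54.1 CPM in the 3 scramble libraries and at 91.8, 88.3 and 105 CPM in the 3 KD libraries. Under LPS the scramble libraries had 39.7, 49.4 and 50.9 CPM, against 111, 113 and 115 CPM in KD. The groups did not overlap in either pair, and the KD libraries with LPS were the highest of the 4 groups. KD raised AMOTL2 1.59-fold without LPS (log2 fold change 0.67, SE 0.09, adjusted p = 0.000261) and 2.42-fold with LPS (1.27, SE 0.10, adjusted p = 4.59e-07). An overlapping pseudogene on the same strand, RPL39P5, had at most 17 counts in a library.

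The effect of LPS on AMOTL2 differed between scramble control and KD in the interaction test. LPS lowered it by 21.8% in scramble control (-0.35, SE 0.11, adjusted p = 0.0473). In KD its log2 fold change was 0.25 (SE 0.08, adjusted p = 0.0811), with all 3 LPS libraries above the 3 without LPS. The KD effect was 0.61 larger on the log2 scale with LPS than without (SE 0.14, adjusted p = 0.0367 for the interaction over all 12 libraries). AMOTL2 was the only gene of the 10 whose interaction passed, where 1.28% of all genes passed (0.943% positive and 0.332% negative, and 0.431% with at least 2-fold). The interaction call was lost in 8 of the 12 fits that left out 1 library, with an adjusted p of up to 0.132 without scramble replicate 2, and it was kept without scramble replicate 3, KD replicate 3 or either of scramble LPS replicates 2 and 3. The fall under LPS in scramble control was lost in 5 of 6 such fits and kept without scramble replicate 3, with an adjusted p of up to 0.197 without scramble replicate 2.

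AMOTL1 (chr11:94706431-94876748, plus strand) is the angiomotin most expressed here in scramble control. Its level was 171, 193 and 209 CPM for scramble control and 149.7, 155 and 168 CPM in KD. With LPS it was 119.5, 133 and 133 CPM for scramble control and 122, 116 and 125 CPM in KD. LPS lowered AMOTL1 in both backgrounds, by 32.0% in scramble control (-0.56, SE 0.09, adjusted p = 0.0013) and by 23.3% in KD (-0.38, SE 0.08, adjusted p = 0.00429). The fall of 17.1% with KD without LPS was small (-0.27, SE 0.09, adjusted p = 0.0396). It no longer passed under scaling by library size alone (adjusted p = 0.192), nor without scramble replicate 2 (0.116), scramble replicate 3 (0.126), KD replicate 1 (0.119) or KD replicate 2 (0.0835). With LPS the KD effect on AMOTL1 was -0.09 (SE 0.08, adjusted p = 0.458).

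AMOT (chrX:112774503-112840831, minus strand), the founding member of the family, was barely expressed. It had 28, 17 and 5 counts in the scramble libraries, 42, 121 and 24 in KD, 27, 26 and 29 in scramble control with LPS and 6, 26 and 21 in KD with LPS. On the CPM scale the largest value, 2.25 in KD replicate 2, compares with 0.593 in KD replicate 3. KD without LPS raised AMOT 4.19-fold (2.07, SE 0.69, adjusted p = 0.0429). The call was lost without KD replicate 2 (1.48, adjusted p = 0.221), KD replicate 1 (0.0645), scramble replicate 2 (0.113) or scramble replicate 3 (0.12). The study, which used DESeq2 on RNA-seq of the same libraries, lists AMOT as higher in KD, which is not an independent result. With LPS the KD effect was -0.60 (SE 0.74, adjusted p = 0.618), and the interaction of -2.66 (SE 0.99) had an adjusted p of 0.272, which did not pass.

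Setting the angiomotins against each other within a library removes the scaling. The ratio of AMOTL2 to AMOTL1 counts was 0.319 ± 0.0535 in scramble control, 0.362 ± 0.0263 with LPS, 0.603 ± 0.0305 in KD and 0.935 ± 0.0330 in KD with LPS (SD, n = 3 each). The ratio did not overlap between KD and scramble control in either LPS state, nor between KD without and with LPS, and it overlapped between scramble control without and with LPS. An exact two-sided permutation test gave p = 0.1 for each of the 3 non-overlapping pairs, which is the smallest value that 3 against 3 libraries can give, and p = 0.3 for LPS in scramble control. Such ratios show unequal change and not which gene moved.

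**Figure D2:**
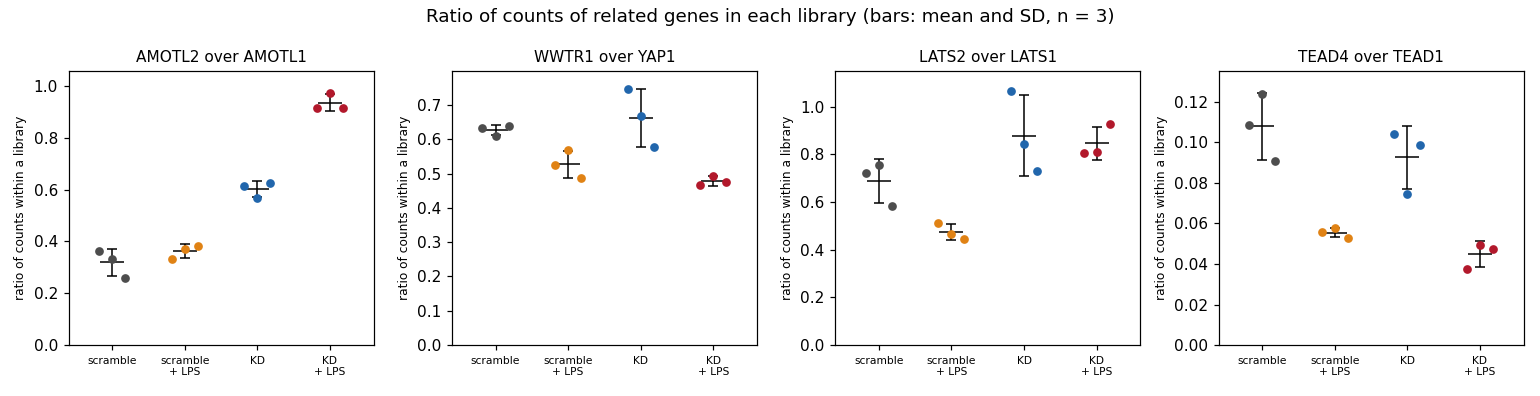
Ratio of the counts of related genes within each library (y axis, from 0; points) by group (x axis), with the mean and SD of 3 libraries. The AMOTL2 to AMOTL1 ratio goes from 0.319 in scramble control to 0.935 in KD with LPS, whereas the TEAD4 to TEAD1 ratio sits lower in both LPS groups.

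YAP1 (chr11:102110447-102233424, plus strand) encodes YAP, the coactivator at the end of the cascade. It was the gene with the highest level per length of the 10 in every group. Its level was 353, 352 and 331 CPM for scramble control and 190.4, 229 and 208 CPM in KD. With LPS it was 302, 263 and 315 CPM for scramble control and 232, 209 and 216 CPM in KD. No KD library reached a scramble library of the same LPS state. KD lowered YAP1 by 39.3% without LPS (-0.72, SE 0.08, adjusted p = 4.74e-05) and by 25.5% with LPS (-0.42, SE 0.08, adjusted p = 0.00202). The 2 effects differed by 0.30 (SE 0.12), which did not pass (adjusted p = 0.315). LPS changed YAP1 by -0.22 in scramble control (SE 0.08, adjusted p = 0.108) and by 0.07 in KD (SE 0.08, adjusted p = 0.709). The former passed with DESeq2 (adjusted p = 0.0437).

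WWTR1 (chr3:149517235-149736714, minus strand) encodes TAZ, the paralog of YAP. It fell with KD and with LPS, each in both states of the other factor. Its level was 224, 215 and 211 CPM in scramble control, 159, 149 and 154 CPM with LPS, 142, 152 and 120.0 CPM in KD and 108, 103 and 102 CPM in KD with LPS. KD lowered WWTR1 by 36.0% without LPS (-0.64, SE 0.09, adjusted p = 0.000263) and by 32.2% with LPS (-0.56, SE 0.07, adjusted p = 7.35e-05). LPS lowered it by 28.2% in scramble control (-0.48, SE 0.07, adjusted p = 0.000747) and by 24.4% in KD (-0.40, SE 0.09, adjusted p = 0.0091). The interaction was 0.09 (SE 0.12, adjusted p = 0.879). The ratio of WWTR1 to YAP1 counts was 0.627 ± 0.0155 in scramble control and 0.527 ± 0.0399 with LPS, and 0.663 ± 0.0844 in KD and 0.478 ± 0.0139 with LPS (SD, n = 3 each), lower with LPS and without overlap in either background (exact permutation p = 0.1, the smallest possible).

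The TEAD factors carry YAP and TAZ to DNA. TEAD1 (chr11:12674421-12944737, plus strand) did not pass in any of the 5 tests, with log2 fold changes of -0.16 (SE 0.08, adjusted p = 0.182) and -0.07 (SE 0.09, adjusted p = 0.635) for KD without and with LPS. TEAD4 (chr12:2959330-3040676, plus strand) was lower after LPS. It stood at 18.8, 19.5 and 14.2 CPM for scramble control and 10.3, 9.64 and 9.89 CPM with LPS, and at 13.7, 11.5 and 14.7 CPM in KD and 6.42, 7.66 and 8.86 CPM with LPS. The groups without and with LPS did not overlap in either background. LPS lowered TEAD4 by 42.7% in scramble control (-0.80, SE 0.14, adjusted p = 0.00232) and by 42.5% in KD (-0.80, SE 0.17, adjusted p = 0.0071). The KD effects on TEAD4 were -0.40 (SE 0.15, adjusted p = 0.0698) and -0.38 (SE 0.17, adjusted p = 0.131).

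LATS1 and LATS2 are the kinases that phosphorylate YAP and TAZ. LATS2 (chr13:20973036-21061586, minus strand), also a YAP target, was lower after LPS in scramble control. Its level was 26.6, 27.8 and 22.1 CPM for scramble control and 16.7, 15.1 and 16.2 CPM with LPS, against 28.2, 27.6 and 22.3 CPM in KD and 23.1, 26.1 and 26.4 CPM in KD with LPS. The scramble libraries with LPS were below all 9 others. LPS lowered LATS2 by 36.7% in scramble control (-0.66, SE 0.11, adjusted p = 0.00219), and in KD its log2 fold change was -0.05 (SE 0.12, adjusted p = 0.886). KD raised LATS2 1.57-fold with LPS (0.65, SE 0.12, adjusted p = 0.000831), with 0.03 without LPS (SE 0.12, adjusted p = 0.873). The test of that difference itself gave an interaction of 0.63 (SE 0.17) with an adjusted p of 0.0929, which did not pass in edgeR. DESeq2 gave 0.0352.

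LATS1 (chr6:149658153-149718105, minus strand) varied little. It was 36.7 to 37.8 CPM in scramble control, 32.4 to 36.4 CPM with LPS, 26.5 to 32.8 CPM in KD and 28.6 to 32.2 CPM in KD with LPS. Its fall of 18.9% in KD without LPS (-0.30, SE 0.10, adjusted p = 0.0387) was lost under scaling by library size alone (0.18) and in 5 of 6 fits without 1 library, with adjusted p-values of 0.0661 without KD replicate 3, 0.129 without KD replicate 1, and 0.0838, 0.0965 and 0.089 without scramble replicates 1, 2 and 3. The ratio of LATS2 to LATS1 counts was 0.688 ± 0.0913 in scramble control, 0.474 ± 0.0353 with LPS, 0.878 ± 0.171 in KD and 0.846 ± 0.0683 in KD with LPS (SD, n = 3 each). The scramble LPS libraries did not overlap with those of scramble control or of KD with LPS (exact permutation p = 0.1 for each, the smallest possible).

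ANKRD1 (chr10:90912096-90921087, minus strand) encodes an ankyrin repeat protein and is a standard readout of nuclear YAP and TAZ. The 250 bases before its RefSeq start (GRCh38.p14, chr10:90921088-90921337, minus strand) are shown because they hold the letters GGAATG, the core of the element that TEAD factors recognise, at 2 places (capitals), 220 and 128 bases before the start.
ANKRD1 promoter: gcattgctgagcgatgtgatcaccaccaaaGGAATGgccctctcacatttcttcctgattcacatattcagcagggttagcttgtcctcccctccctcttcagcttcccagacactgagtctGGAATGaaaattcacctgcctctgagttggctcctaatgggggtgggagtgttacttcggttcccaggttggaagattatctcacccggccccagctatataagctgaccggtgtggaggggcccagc
GGAATG and its reverse complement CATTCC were searched on this strand, which covers both strands. Of the 35116 starts in the RefSeq table, 11.9% held at least 1 match in the same window and 0.928% held 2 or more. Of the 8 genes found in the table, AMOTL2 had 1 match before its second start, 69 bases upstream, and YAP1 had 1 match 162 bases upstream. These 30-base stretches, at chr3:134374499-134374528 (minus strand) and chr11:102110273-102110302 (plus strand), show each match in capitals with its neighbours.
AMOTL2: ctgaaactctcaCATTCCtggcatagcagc
YAP1: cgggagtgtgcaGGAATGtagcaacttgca
AMOT, AMOTL1, WWTR1, LATS1 and LATS2 had these letters in none of their windows. The windows of AMOTL1, AMOTL2 and WWTR1, and that of the second LATS1 start, overlap annotated exons of the same gene. The only AMOTL1 window (chr11:94768106-94768355) lies inside the gene. So do both WWTR1 windows, that of the second AMOTL2 start, which holds the match shown, and that of the first LATS1 start. The windows of YAP1 and of the second WWTR1 and LATS1 starts overlap exons of long non-coding RNA genes. Starts outside the RefSeq table were not searched. A match describes letters and no binding was measured.

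ANKRD1 was low but rose more than any other of the 10 genes with KD in the presence of LPS. It stood at 2.07, 3.20 and 1.55 CPM in scramble control (109, 168 and 72 counts) and at 6.48, 8.09 and 13.5 CPM in KD. With LPS it was 1.23, 0.429 and 1.15 CPM in scramble control (48, 13 and 49 counts) and 6.17, 3.91 and 5.45 CPM in KD. All KD libraries were above all scramble libraries. KD raised ANKRD1 4.12-fold without LPS (2.04, SE 0.32, adjusted p = 0.000481) and 5.44-fold with LPS (2.44, SE 0.39, adjusted p = 0.000352), and the difference of 0.40 (SE 0.51) did not pass (adjusted p = 0.874). Under LPS, ANKRD1 was lower without overlap in both backgrounds, by -1.25 in scramble control (SE 0.44, adjusted p = 0.0812) and -0.85 in KD (SE 0.27, adjusted p = 0.0525). Neither passed as fitted here. Over the alternatives that kept all libraries, the adjusted p was 0.0335 to 0.0884 in scramble control, where 3 of 7 passed, and 0.00354 to 0.134 in KD, where 4 of 7 passed.

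**Figure D3:**
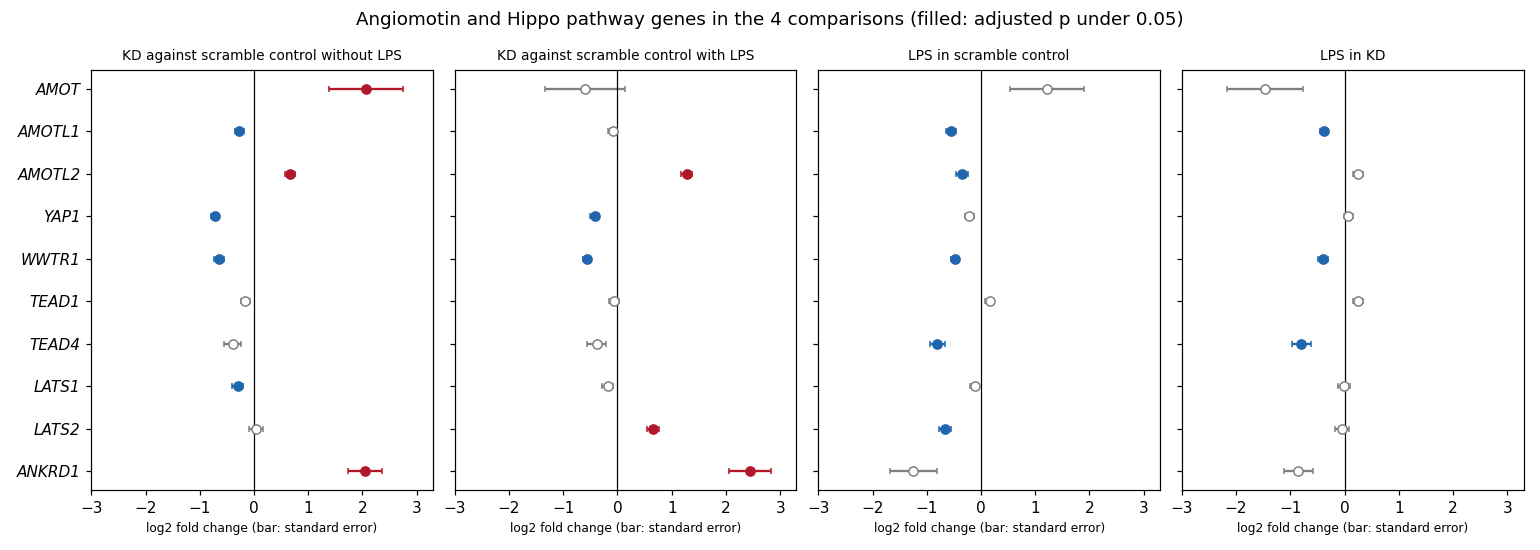
Log2 fold change (x axis, bars: SE) of the 10 genes (y axis) in the 4 comparisons (panels), with filled points where the adjusted p was under 0.05. KD with LPS gives 1.27 for AMOTL2 and 2.44 for ANKRD1 against -0.42 for YAP1 and -0.56 for WWTR1.

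Across genes, levels per kilobase of the canonical transcript (CPM per kb) placed YAP1 highest in scramble control, at 63.9, followed by WWTR1 (43.0), AMOTL1 (21.2), TEAD1 (17.2), AMOTL2 (12.4), TEAD4 (10.2), LATS1 (5.04), LATS2 (4.60), ANKRD1 (1.27) and AMOT (0.0421). AMOTL2 and TEAD4 overlapped, as did LATS1 and LATS2, and the other neighbours in this order did not. In KD, AMOTL2 (19.6) came next after WWTR1 (27.4) and overlapped with AMOTL1 (17.6). In KD with LPS it was above WWTR1, at 23.2 against 20.7 CPM per kb, without overlap.

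The wider set of 22 YAP and TAZ target genes, which holds ANKRD1, AMOTL2 and LATS2, was mixed without LPS. KD raised 4 and lowered 5 of them (40.9% passed, against 27.2% of all genes), with a median log2 fold change of 0.01 against 0.02 over all genes. The 9 calls became 5 without scramble replicate 2 or 3. Besides AMOTL2 and ANKRD1, GADD45A, a DNA damage and stress response gene, rose 1.55-fold (adjusted p = 0.000206). CCDC80, an extracellular matrix protein, fell from 2845 to 779 CPM on average (-1.86, adjusted p = 1.82e-06), and IGFBP3, which binds insulin-like growth factors, fell by 0.36 on the log2 scale (adjusted p = 0.0252).

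With LPS, KD raised 11 and lowered 2 of the 22 target genes (59.1% passed, against 26.9% of all genes, of which 12.7% up), with a median of 0.29 against 0.03 over all genes. CCN2, a matricellular growth factor that serves with ANKRD1 as a readout of YAP, averaged 178 CPM in KD and 104 CPM in scramble control (0.77, SE 0.14, adjusted p = 0.000994). Without LPS its KD effect was -0.16 (SE 0.13, adjusted p = 0.406). CCDC80 and IGFBP3 were the 2 that fell (-1.95 and -0.33, adjusted p = 6.26e-08 and 0.0147).

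LPS lowered 9 and raised 1 of the 22 target genes in scramble control (45.5% passed against 14.3% of all genes, median -0.31 against 0.02), and lowered 6 and raised 1 of 21 tested in KD (33.3% against 11.3%, median -0.12 against 0.01). CCN2 was 336, 369 and 354 CPM for scramble control and 100.0, 93.6 and 118 CPM with LPS (-1.75, SE 0.09, adjusted p = 4.52e-07). In KD, CCN2 was 258, 289 and 397 CPM without and 140.1, 171 and 223 CPM with LPS (-0.82, SE 0.16, adjusted p = 0.00308). CCN1, a matricellular relative of CCN2, fell from a mean of 1137 to 433 CPM in scramble control (-1.38, adjusted p = 6.19e-06) and from 1399 to 737 CPM in KD (-0.92, adjusted p = 4.08e-07). F3, the tissue factor of coagulation, fell in scramble control (-0.90, adjusted p = 0.000108). In KD, F3 averaged 274 CPM without and 209 CPM with LPS, without overlap. RBMS3, an RNA-binding protein, was the gene that rose in both backgrounds (0.38 and 0.57, adjusted p = 0.0135 and 0.00229). TAGLN, a smooth muscle marker, also fell with LPS in scramble control (-1.26, adjusted p = 5.65e-06), and the part of such markers in the fall of the target genes was not tested.

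**Figure D4:**
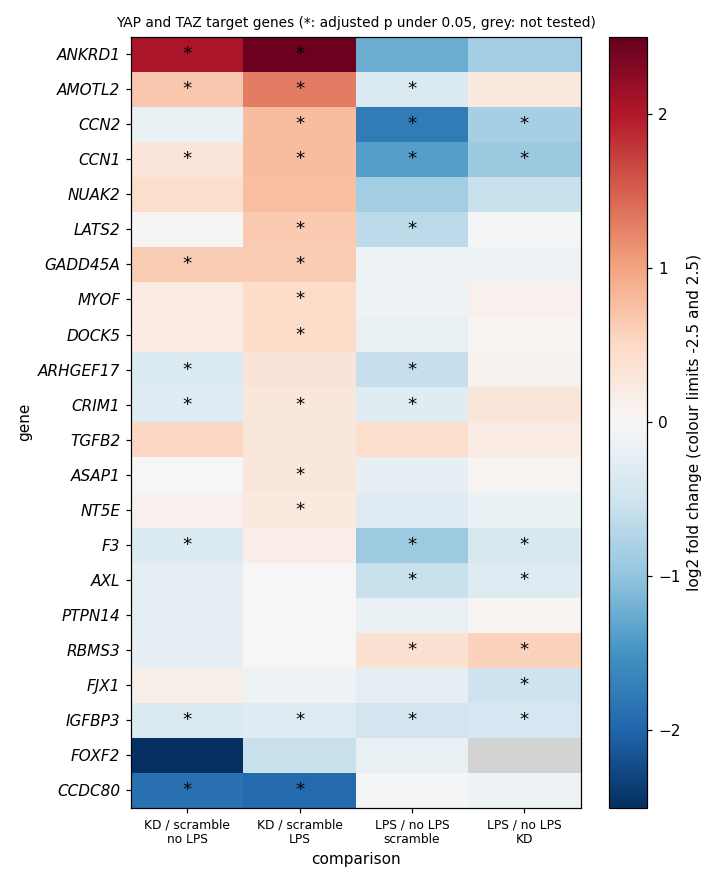
Log2 fold change (colour, limits -2.5 and 2.5, values beyond drawn at the limit) of 22 YAP and TAZ target genes (rows) in the 4 comparisons (columns), with an asterisk where the adjusted p was under 0.05 and grey where a gene was not tested. KD with LPS has 11 genes higher and 2 lower, and LPS in scramble control has 1 higher and 9 lower.

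Of the 22 target genes, 3 had an interaction that passed (13.6%, against 1.28% of all genes), and in each the KD effect was the higher with LPS: AMOTL2 (0.61), CCN2 (0.94, SE 0.21, adjusted p = 0.0371) and CRIM1, a transmembrane protein that binds bone morphogenetic proteins (0.62, SE 0.14, adjusted p = 0.0329). CRIM1 fell with KD without LPS (-0.32, adjusted p = 0.0372) and rose with KD in its presence (0.29, adjusted p = 0.0188). With library size alone 1 of the 22 passed, with DESeq2 8 passed, and without 1 library 0 to 4 passed. CRIM1, and VGLL3, STK38L and RASSF5 below where the interaction is given, were chosen after their values were seen.

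Among the 8 tested genes of TEAD factors and their coactivators, which include YAP1, WWTR1, TEAD1 and TEAD4, KD raised 1 and lowered 3 without LPS and raised 3 and lowered 2 with LPS (50% and 62.5% passed, against 27.2% and 26.9% of all genes). LPS lowered 5 of the 8 in scramble control and 3 in KD, and the rest did not pass (62.5% and 37.5% passed, against 14.3% and 11.3%). VGLL3 encodes a vestigial-like cofactor that binds TEAD factors. Its level was 354, 440.2 and 381 CPM in scramble control, 191, 192 and 227 CPM with LPS, 232, 282 and 245 CPM in KD and 276, 260.2 and 269 CPM in KD with LPS. VGLL3 thus fell with LPS in scramble control (-0.93, SE 0.10, adjusted p = 7.94e-05), and in KD its log2 fold change was 0.09 (SE 0.08, adjusted p = 0.598). KD lowered VGLL3 without LPS (-0.63, adjusted p = 0.000545) and raised it with LPS (0.40, adjusted p = 0.00269), and the interaction was 1.03 (SE 0.13, adjusted p = 0.000538). TEAD2 rose with KD in both states (0.56 and 0.52, adjusted p = 0.00394 and 0.0165). TEAD3 fell with LPS in both backgrounds (-0.77 and -0.46, adjusted p = 0.00225 and 0.0287), as TEAD4 did.

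In the kinase cascade of 16 genes, LATS1 and LATS2 included, KD without LPS lowered 8 and raised 1 (56.2% passed against 27.2% of all genes, median -0.22 against 0.02). The gene that rose was MAP4K4, a kinase that can activate LATS, from 298 to 487 CPM on average (0.71, adjusted p = 1.97e-05). MOB1B, a LATS activator, fell (-0.60, adjusted p = 0.0021), as did STK38 (-0.76, adjusted p = 0.00042) and STK38L (-0.44, adjusted p = 0.007), kinases of the LATS family. With LPS, KD raised 2 and lowered 3 of the 16 (31.2% against 26.9%, median -0.02 against 0.03), with MAP4K4 up again (0.67, adjusted p = 5.01e-05). LPS lowered 5 of the 16 in scramble control and 3 in KD, and the rest did not pass (31.2% and 18.8% passed, against 14.3% and 11.3%). For LPS in KD the number that passed was 6 with DESeq2 and 5 with the replicate block. STK38L fell from 229 to 83.9 CPM in scramble control (-1.44, adjusted p = 2.41e-06) and from 168 to 93.7 CPM in KD (-0.85, adjusted p = 3.51e-05), and its interaction passed (0.60, adjusted p = 0.0461). Without 1 library, 0 to 2 of the 16 interactions passed, with 0 in 9 of the 12 fits, and DESeq2 gave 2.

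Upstream regulators and scaffolds passed in 8 of 22 tested genes without LPS (4 higher and 4 lower, 36.4% against 27.2% of all genes) and 9 of 22 with LPS (5 and 4, 40.9% against 26.9%). FAT1, an atypical cadherin linked to the upstream end of the pathway, was the most expressed of those named and fell with KD from 720 to 286 CPM without LPS (-1.33, adjusted p = 2.89e-06) and from 1092 to 454 CPM with LPS (-1.27, adjusted p = 1.68e-08). FAT4, a related cadherin, fell in both states (-0.72 and -0.82, adjusted p = 0.000106 and 3.09e-05). The scaffold WWC1, also called KIBRA, rose (1.40 and 1.79, adjusted p = 0.000633 and 2.32e-05), whereas its paralog WWC2 fell (-0.93 and -0.73, adjusted p = 1.11e-05 and 9.42e-05). RASSF1, a scaffold that binds MST kinases, rose in both states (0.76 and 1.03, adjusted p = 0.00555 and 0.000348).

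Under LPS, 1 of the 22 upstream genes was higher and 5 lower in scramble control, and 2 were higher and 3 lower in KD (27.3% and 22.7% passed, against 14.3% and 11.3% of all genes). The 6 calls in scramble control became 2 without scramble replicate 2 and 3 without scramble replicate 1 or scramble LPS replicate 3. FAT1 rose in both (0.62 and 0.67, adjusted p = 0.00188 and 2.47e-05) and FAT4 fell in both (-0.40 and -0.50, adjusted p = 0.00754 and 0.0064). RASSF5 rose with LPS in KD (1.45, adjusted p = 0.000423), and its interaction passed (1.56, SE 0.35, adjusted p = 0.0316), though 0 of the 22 passed in 10 of the 12 fits without 1 library. NF2, the gene of Merlin, which recruits LATS to the membrane, fell with LPS in KD (-0.45, adjusted p = 0.0138). In scramble control NF2 averaged 42.4 CPM without and 34.0 CPM with LPS, also without overlap.

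Junction and turnover partners of the angiomotins passed in 9 of 20 tested genes without LPS (4 higher and 5 lower, 45% against 27.2% of all genes) and in 8 of 20 with LPS (4 and 4, 40% against 26.9%). PATJ and MAGI3, scaffolds of tight junctions, fell with KD. PATJ averaged 3.92 CPM for scramble control and 0.494 CPM in KD without LPS (-2.97, SE 0.56, adjusted p = 0.00199). It was near the floor in KD, with 3, 22 and 40 counts, against 161, 234 and 198 in scramble control, so its fold change is imprecise. MAGI3 averaged 23.2 and 8.24 CPM (-1.50, adjusted p = 8.57e-06). With LPS the log2 fold changes were -1.94 for PATJ and -1.06 for MAGI3 (adjusted p = 0.000409 and 0.000827). NEDD4, a ubiquitin ligase that can target angiomotins, rose (0.69 and 1.16, adjusted p = 0.000129 and 6.29e-06), as did RNF146, the ligase that acts after tankyrase (0.71 and 0.54, adjusted p = 0.00724 and 0.00213), and MAGI1 (0.35 and 0.71, adjusted p = 0.0241 and 0.000917).

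LPS raised 3 and lowered 2 of the 20 partners in scramble control and raised 4 in KD, where the other 16 did not pass (25% and 20% passed, against 14.3% and 11.3% of all genes). The latter count was 1 without KD replicate 1, KD LPS replicate 1 or KD LPS replicate 3 and 2 without KD replicate 3, and the former was 3 without scramble replicate 2. TNKS, the gene of tankyrase, which marks angiomotins for degradation, rose in both (0.34 and 0.39, adjusted p = 0.048 and 0.0156), and so did RNF146 (0.68 and 0.51, adjusted p = 0.00686 and 0.0257).

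Over the 12 libraries, genes whose log2 CPM followed AMOTL2 closely were TPD52L2 (Pearson r = 0.977) and CTSK, the protease cathepsin K (0.976). AMOTL1 was followed by VEGFA, an angiogenic growth factor (0.970), MAPK13, a p38 kinase (0.967) and ITGA3, an integrin (0.965). For AMOT, near the floor at 5 to 121 counts in a library, the highest were PPIL6 (0.893), LRRC27 (0.832) and HMCN1 (0.832). These are among the highest of the 11811 (AMOT) or 11810 genes compared, and the points share the 4 groups and their libraries, so the values are descriptions.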

How the data were processed

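RNA-seq was made from stranded mRNA libraries of day 14 ASC adipocytes. The authors pseudoaligned reads to human transcriptomes (GRCh38) with kallisto 0.44.0 and deposited estimated counts per gene name, not normalized. The counts were rounded to whole numbers here. The annotation release is not given in the sources used here. A row without a name (0.235% to 0.306% of counts) was left out. Groups came from the labels. Each comparison of 3 against 3 libraries was fitted on its own 6 libraries, and the interaction on all 12, with edgeR 4.0.16 (TMM, quasi-likelihood F test, at least 10 counts in total, Benjamini-Hochberg over all genes, R 4.3.3). SEs were derived from the F statistic, and CPM were scaled by TMM over 12 libraries. Calls needed an adjusted p under 0.05, and a second rule added 2-fold. DESeq2 1.42.0, other scalings and filters, a replicate block and leaving out each library were tried. Changes of 4-fold were simulated in 200 well-expressed genes for KD without LPS. Of these, edgeR recovered 99% to 100%, with a mean of 5.03% to 8.69% false calls, and DESeq2 had 11.7% to 15.5% false calls. Smaller changes and changes of genes near the floor were not simulated, so these values do not extend to them. The genes and lists were chosen with earlier results of these data known. All 10 genes were named; from every other list and comparison, up to 3 rises and 3 falls were eligible, the largest with an adjusted p under 0.05, at least 50 mean counts and groups that do not overlap, and for each angiomotin the 3 genes with the highest Pearson r of log2(CPM + 0.5). Positions are from GENCODE 44 and promoters from RefSeq (8 of 10 genes matched; TEAD1 and TEAD4 did not). Antisense transcripts overlapping AMOTL1, YAP1, WWTR1 and LATS1 were not analysed here. A result of the partner list and a result of the likeness search are not reported here.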

Additional observations from a re-analysis of the deposited data

Results flagged for a closer look

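The difference between the KD effects on AMOTL2 with and without LPS was 0.61 on the log2 scale (SE 0.14, adjusted p = 0.0367), which marks a KD effect that differed between LPS states by the interaction test of edgeR. The KD effect was 0.67 without LPS and 1.27 with LPS, from 3 libraries in each group, and all 3 KD libraries were above all 3 scramble libraries in both states. The call was lost in 8 of the 12 fits without 1 library (adjusted p of up to 0.132) and with library size alone (0.0537).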

How the results depend on the processing

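Of the 50 results on single Hippo genes, 31 kept their direction and their side of the threshold in every alternative run. The number of genes past the threshold ranged from 4 to 6 when 1 library was left out for KD without LPS, was 5 in each such fit for KD with LPS, and ranged from 4 to 5 for LPS in scramble control, 3 to 4 for LPS in KD and 0 to 2 for the interaction. DESeq2 gave 6 genes for LPS in KD, where AMOTL2 (adjusted p = 0.0361), TEAD1 (0.0492) and ANKRD1 (0.0276) were added. For the interaction DESeq2 gave 2 and library size alone gave 0, with AMOTL2 at an adjusted p of 0.0537. With library size alone, TEAD1 for KD with LPS turned to 0.0154 and the TEAD4 interaction to -0.00599. Without 1 library, log2 fold changes near 0 changed sign: LATS2 for KD without LPS (-0.0695 to 0.138), YAP1 (-0.00282 to 0.128), LATS1 (-0.0935 to 0.0552) and LATS2 (-0.156 to 0.0103) for LPS in KD, and the interactions of TEAD4 (-0.0960 to 0.147) and WWTR1 (-0.0242 to 0.152). The cause of these changes was not tested. For LPS in KD, kinase cascade calls went from 3 to 5 or 6 under 5 alternatives. Interaction calls among the YAP and TAZ target genes went from 3 to 8 with DESeq2, 6 without the filter on low counts and 1 with library size alone, and those of the kinase, upstream and TEAD lists, 1 each, moved between 0 and 2. Over all genes, calls for the interaction went from 219 to 475 with DESeq2 and to 431 without the filter on low counts.

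Same-numbered libraries did not deviate together in every pair (r from -0.07 to 0.18), so the numbers were not taken to pair the samples. For LPS in scramble control and for KD with LPS, every r was positive (0.04 to 0.18 and 0.006 to 0.11). The replicate block lowered calls over all genes from 4411 to 3857 for KD without LPS. It raised them from 4292 to 4636 for KD with LPS, from 2274 to 3260 for LPS in scramble control and from 1835 to 2238 for LPS in KD. Among the 10 genes it changed 3 calls: LATS1 for KD without LPS was lost (adjusted p = 0.0637), and YAP1 for LPS in scramble control (0.0441) and ANKRD1 for LPS in KD (0.00354) passed. The precision of AMOT rests on 5 to 121 counts in a library.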
